A study of Callithrix jacchus with 54 samples.

Results

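The enzymes that write, copy and remove DNA methylation were followed by RNA-seq through the induction of primordial germ cell-like cells (cjPGCLCs) from embryonic stem cells of the common marmoset (cjESCs). The list had 10 genes, of which 8 were rows of the deposited expression table by symbol (DNMT1, DNMT3B, DNMT3L, UHRF1, UHRF2, TET1, TET2 and TDG), out of 14812 genes in all. DNMT3A and TET3 were not analysed here. All 8 passed the filter on low values, a log2(TPM + 1) of at least 1.5 in at least 1 library, which kept 11197 genes. TPM are transcript abundances per length, scaled to a constant total over all genes quantified in a library, so levels are relative to the other transcripts of the same cells. The genes of the table are a part of that total. Their sums were 790300 to 839203 per library and were not rescaled in the main fit.

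DNA methylation is set by de novo enzymes, DNMT3A and DNMT3B, which the catalytically inactive DNMT3L assists, and it is copied after replication by DNMT1, which UHRF1 brings to newly replicated, half-methylated sites. TET enzymes oxidise the methyl group, and TDG cuts out the oxidised bases for replacement by base excision repair. Primordial germ cells (PGCs) of mice and humans are known for a genome-wide loss of methylation in which copying at replication is weakened.

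There were 27 conditions with 2 libraries each, 54 in all, from the line CMES40, which carried a BLIMP1-tdTomato (BT) and a NANOS3-eGFP (NG) reporter in every sample. cjESCs kept in DK20FA medium also carried rtTA, tetO-BLIMP1, SOX17-GR and DD-TFAP2C transgenes, and so did the cells made from them in BLSE (BMP4, LIF, SCF, EGF and a Rock inhibitor), in SOX17 + BLSE, where dexamethasone was added to activate exogenous SOX17, and in SOX17 + LSE, which lacked BMP4. cjESCs kept in PESFA medium had no such transgenes (labelled wild type). They were pre-treated with IM12, a WNT pathway agonist, and activin A for 24 h, and then placed in BLSE + IWR1, an inhibitor of WNT signalling, or in BLSE + IWR1 + BMS, with the retinoic acid receptor inverse agonist BMS493 added. Cells were taken at 12, 24, 48 and 96 h in each of these 5 conditions. BLSE + IWR1 cells were also taken at day 6, and day 6 cells were aggregated with mouse gonadal somatic cells into xenogeneic reconstituted ovaries (xrOvaries) and recovered at days 20, 40 and 70.

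cjESCs and pre-treated cells were sorted for TRA-1-60, the 12, 24 and 48 h cells and the BLSE cells at 96 h were collected without a gate on BT, and the remaining cells from 96 h onward were sorted for BT. The step from 48 to 96 h in 4 conditions was therefore also a step from all cells to BT-positive cells, and these cannot be told apart. The medium and the transgenes cannot be told apart either, since all DK20FA cells carried the transgenes and no PESFA cells did. Nor can SOX17 and dexamethasone, a glucocorticoid, in the comparisons of SOX17 + BLSE with BLSE. At 96 h these comparisons also set BT-sorted cells against cells not sorted for BT, so the sort cannot be told apart from SOX17 there. In such bulk samples, fewer cells of a type and less RNA per cell cannot be told apart.

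The cells carried the markers of their labels. POU5F1 was at 3082.48 and 2867.79 TPM in cjESCs in DK20FA and at 3428.93 and 3296.59 in PESFA. At day 6, SOX17 was at 617.08 and 708.18 TPM and NANOS3 at 393.91 and 486.72, and SOX2 at 0 and 0.74, against 234.65 and 232.45 in cjESCs in PESFA. In BLSE cells at 96 h, 5 of 6 listed mesodermal genes rose over cjESCs in DK20FA and 0 fell, where 16.2% of all genes rose and 23% fell. The summed TPM of 6 fibroblast genes was 2895.19 and 1660.47 in cjESCs in PESFA, with COL1A1 the most abundant, 2444.1 and 4646.38 in pre-treated cells, and 195.48 and 213.08 in cjESCs in DK20FA. It was 40.96 and 40.81 at day 6. Mouse feeder cells were under the cjESCs, and the part of fibroblast RNA in the values below was not tested. Of 8 listed gonadal somatic genes 6 were in the table, and their summed TPM was between 0.49 and 3.25 in the 6 xrOvary libraries, where KITLG had the highest mean at each day and FOXL2, at 1.56 TPM, the highest value of replicate 2 at day 20, and 1 or 2 of the 6 genes were listed at 0 in both libraries.

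Libraries of a condition correlated at r of 0.9769 to 0.9942 across genes. The 48 h BLSE + IWR1 libraries were the farthest apart on average (mean absolute log2 difference 0.4451), with replicate 1 below replicate 2 for all 8 enzymes, and the day 20 xrOvary libraries had the lowest correlation, with 10146 genes above 0 in replicate 2 and 11441 in replicate 1. Fold changes that rest on these libraries are followed by values without each of them.

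The levels in the undifferentiated cells came first. In cjESCs in DK20FA, UHRF1 was the most abundant of the 8 enzymes, at 118.42 and 126.61 TPM, followed by DNMT3B at 59.05 and 61.71. TET1 was at 43.81 and 29.03 TPM and TET2, its paralog, at 5.35 and 4.31. Between cjESCs in PESFA and DK20FA, 2 of 8 enzymes passed the test, against 26.8% of all genes. DNMT1 was at 23.53 and 16.36 TPM in PESFA and 30.09 and 36.79 in DK20FA, without overlap, and was lower by 0.73 ± 0.17 (adjusted p = 0.00148). UHRF2, a paralog of UHRF1 that binds modified cytosines, was at 29.79 and 39.12 TPM in PESFA and 14.51 and 21.56 in DK20FA, and was higher by 0.91 ± 0.22 (adjusted p = 0.00178). Both calls were lost without replicate 2 in PESFA (adjusted p = 0.104 and 0.0636), and that of UHRF2 without replicate 1 in DK20FA (adjusted p = 0.0861). After pre-treatment, 0 of 8 enzymes passed limma's test against cjESCs in PESFA, where 1.13% of all genes did. At an unadjusted p under 0.05, 0 did.

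**Figure D1:**
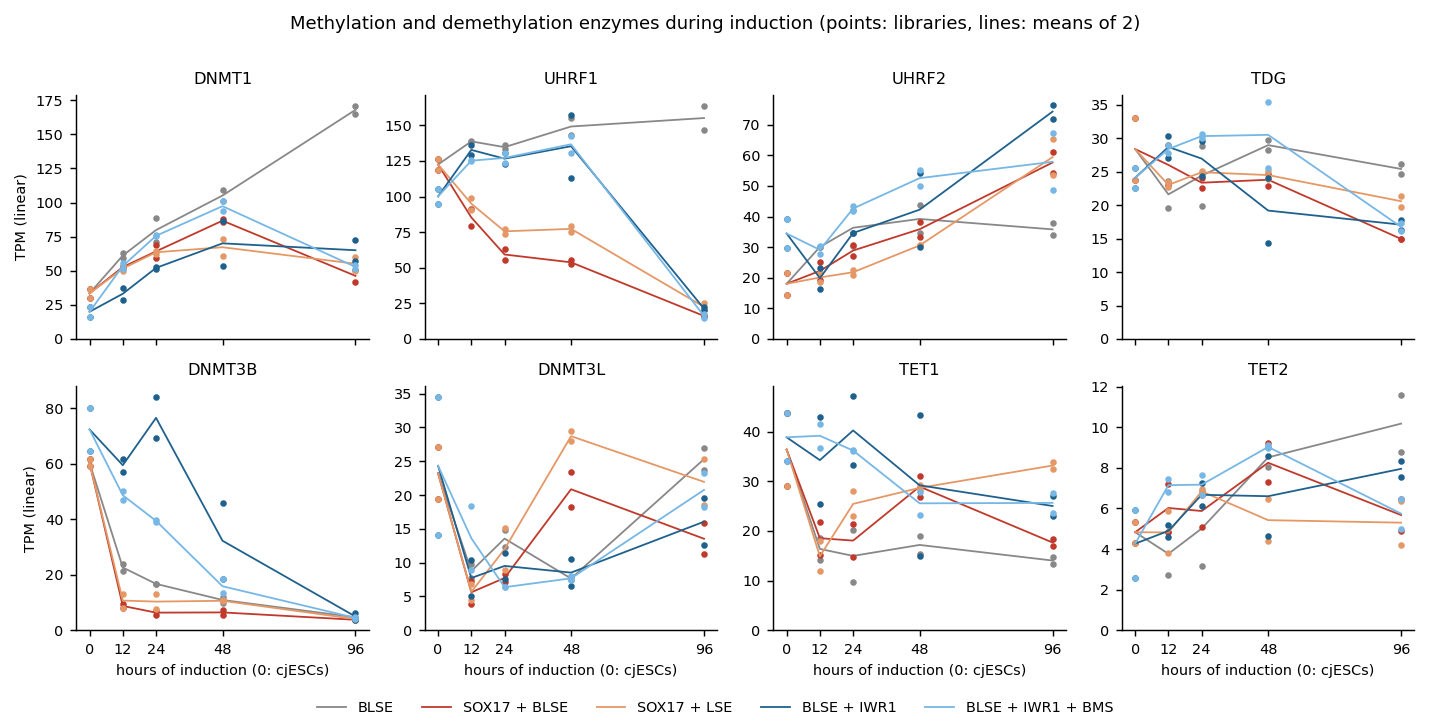
TPM (vertical axis, linear) of the 8 enzymes against hours of induction, with 0 standing for the cjESCs of origin. In the conditions with IWR1, a pre-treatment of 24 h lay between these cjESCs and the start of induction. Points are libraries and lines join the means of 2 libraries in the 5 conditions. DNMT3B ends below 7 TPM in all of them, whereas UHRF1 stays above 140 TPM at 96 h in BLSE (grey) and is at or below 25 in the 4 conditions sorted for BT.

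Of the maintenance genes, UHRF1 was low in BT-positive cells at 96 h and high in BLSE. UHRF1 in BLSE was at 146.44 and 163.8 TPM at 96 h, above the cjESC libraries, a difference of 0.34 that missed the threshold (adjusted p = 0.0745, limma) but passed under median-ratio scaling (0.46, adjusted p = 0.0108) and quantile normalization (0.38, adjusted p = 0.0344). At the same time it was at 16.21 and 16.11 TPM in SOX17 + BLSE, 20.1 and 24.98 in SOX17 + LSE, 20.11 and 22.53 in BLSE + IWR1 and 14.89 and 17.46 in BLSE + IWR1 + BMS. All 8 of these BT-sorted libraries were below every cjESC library. Against the cjESCs of origin, on the log2(TPM + 1) scale, UHRF1 fell by 2.85 ± 0.15 (adjusted p = 9.66e-18) in SOX17 + BLSE and by 2.40 ± 0.15 (adjusted p = 2.47e-15) in SOX17 + LSE. It fell by 2.18 ± 0.15 (adjusted p = 1.47e-14) in BLSE + IWR1 and by 2.56 ± 0.15 (adjusted p = 1.62e-16) in BLSE + IWR1 + BMS. Between SOX17 + BLSE and BLSE at 96 h the difference was -3.18 ± 0.15 (adjusted p = 2.13e-19).

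With SOX17, UHRF1 was already lower before any sorting for BT. At 12 h the SOX17 + BLSE libraries had 79.49 and 91.17 TPM of it, compared with 138.43 and 139.04 in BLSE. At 24 h they had 55.14 and 63.49, compared with 135.94 and 133.43, and at 48 h 52.52 and 55.12, compared with 143 and 155.35. The libraries of the conditions did not overlap at any of these times. The difference was -0.70 ± 0.15 (adjusted p = 0.0031) at 12 h, then -1.17 ± 0.15 (adjusted p = 5.85e-07) at 24 h. By 48 h it had reached -1.45 ± 0.15 (adjusted p = 1.89e-09). The call at 12 h was lost without replicate 1 of SOX17 + BLSE (-0.60, adjusted p = 0.0843). At 12 and 24 h, UHRF1 and DNMT3B were the 2 of 8 enzymes that passed, against 4.35% and 13.5% of all genes. In BLSE + IWR1, by contrast, UHRF1 was at 136.12 and 129.36 TPM at 12 h, 122.81 and 130.38 at 24 h and 113.13 and 157.55 at 48 h, and none of these 6 libraries, which were not sorted for BT, was below the higher cjESC library in PESFA.

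DNMT1, the maintenance methyltransferase itself, did not follow UHRF1 in the comparisons of BT-positive cells at 96 h with cjESCs. It rose in BLSE from 30.09 and 36.79 TPM in cjESCs to 63.16 and 59.12 at 12 h and 164.8 and 170.99 at 96 h, an increase of 2.30 ± 0.17 (adjusted p = 1.52e-13). In SOX17 + BLSE it was at 85.77 and 87.63 TPM at 48 h and 50.89 and 41.61 at 96 h, when it was higher than in cjESCs by 0.46 ± 0.17 (adjusted p = 0.0253). This last call was lost under median-ratio scaling (0.28, adjusted p = 0.0913) and without replicate 1 of either group (0.32 and 0.31, adjusted p = 0.233 for both). Against BLSE at 96 h, DNMT1 in SOX17 + BLSE was lower, by 1.84 ± 0.17 (adjusted p = 2.13e-11). In SOX17 + LSE at 96 h it was at 50 and 60.23 TPM and higher than in cjESCs by 0.71 ± 0.17 (adjusted p = 0.00103). In BLSE + IWR1 at 96 h it was at 57.36 and 72.71 TPM and higher than in cjESCs by 1.67 ± 0.17 (adjusted p = 3.49e-10), and with BMS it was at 51.16 and 54.44 and higher by 1.38 ± 0.17 (adjusted p = 2.05e-08).

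UHRF2 rose in each of the 5 conditions. At 96 h it was at 33.81 and 37.81 TPM in BLSE, 60.95 and 54.35 in SOX17 + BLSE, 65.38 and 53.45 in SOX17 + LSE, 71.99 and 76.58 in BLSE + IWR1 and 48.63 and 67.14 in BLSE + IWR1 + BMS. The BLSE libraries were below all 8 BT-sorted ones. The increase was 0.97 ± 0.22 (adjusted p = 0.000429) in BLSE, 1.65 ± 0.22 (adjusted p = 7.43e-08) in SOX17 + BLSE, and 1.098 ± 0.22 (adjusted p = 6.26e-05) in BLSE + IWR1. It was 1.68 ± 0.22 (adjusted p = 7.16e-08) in SOX17 + LSE, and 0.73 ± 0.22 (adjusted p = 0.00552) in BLSE + IWR1 + BMS, where the call was lost without replicate 1 in PESFA (0.54, adjusted p = 0.0986) or replicate 2 with BMS (0.50, adjusted p = 0.129). SOX17 + BLSE exceeded BLSE at 96 h by 0.67 ± 0.22 (adjusted p = 0.00918), a call that was lost under median-ratio scaling (0.37, adjusted p = 0.108) and without replicate 1 of either group (0.59 for both, adjusted p = 0.0722 and 0.0702).

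With UHRF1 falling and UHRF2 rising, the share of UHRF2 in their summed TPM turned over. It was 12.7% ± 2.57 (SD, n = 2) in cjESCs in DK20FA and 25.5% ± 2.24 in PESFA, and 18.8% ± 0.0023 in BLSE at 96 h. It was 78.1% ± 1.31 in SOX17 + BLSE at 96 h, 72.3% ± 5.89 in SOX17 + LSE, 77.7% ± 0.635 in BLSE + IWR1 and 78.0% ± 1.98 in BLSE + IWR1 + BMS. The shares in libraries sorted for BT and in those not sorted for BT did not overlap, the highest value without BT sorting being 41.0% in SOX17 + BLSE at 48 h and the lowest with it 68.2% in SOX17 + LSE at 96 h.

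**Figure D2:**
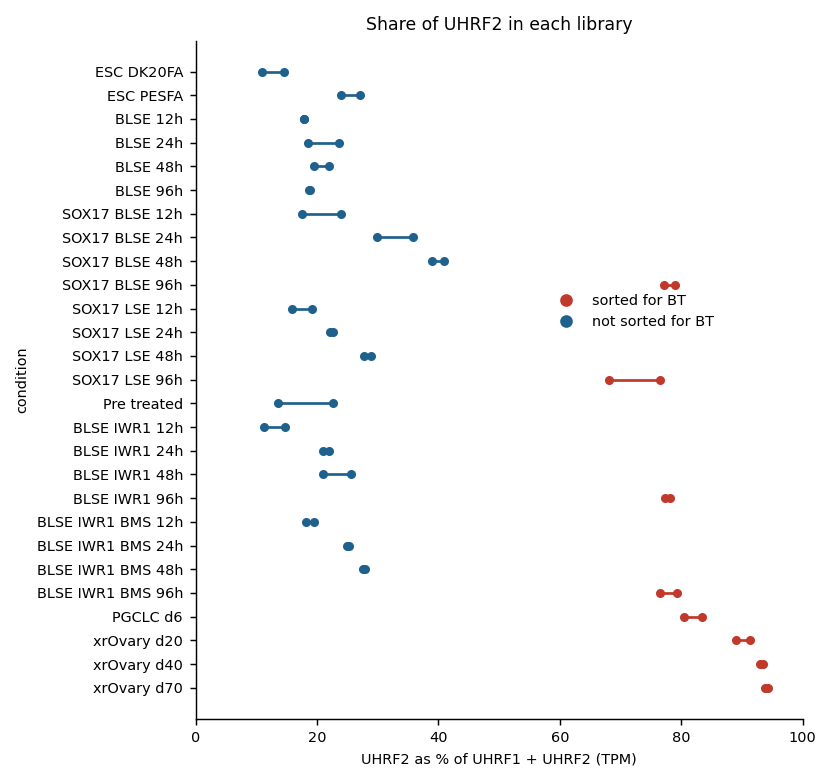
Share of UHRF2 in the summed TPM of UHRF1 and UHRF2 (horizontal axis, percent) for the 27 conditions, with 1 point for each of 2 libraries and red for cells sorted for BT. Every library not sorted for BT lies at or below 41.0% and every BT-sorted one at or above 68.2%.

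The de novo enzyme DNMT3B fell in all 5 conditions to a similar end, by different courses. From 59.05 and 61.71 TPM in cjESCs in DK20FA and 80.04 and 64.74 in PESFA it came at 96 h to 4.51 and 4.76 in BLSE, 3.49 and 3.98 in SOX17 + BLSE and 3.59 and 4.44 in SOX17 + LSE. In BLSE + IWR1 it came to 3.68 and 6.13 and with BMS to 4.7 and 4.13. All 10 libraries at 96 h were thus below 7 TPM, with overlap between conditions. It fell by 3.44 ± 0.26 (adjusted p = 1.68e-13) in BLSE, fell by 3.70 ± 0.26 (adjusted p = 1.9e-14) in SOX17 + BLSE, and fell by 3.62 ± 0.26 (adjusted p = 7.43e-14) in SOX17 + LSE. It fell by 3.66 ± 0.26 (adjusted p = 3.12e-14) in BLSE + IWR1, and fell by 3.75 ± 0.26 (adjusted p = 1.27e-14) with BMS.

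The courses parted at 12 h. DNMT3B was then at 9.36 and 8.11 TPM in SOX17 + BLSE, 13.19 and 8.14 in SOX17 + LSE, 23.98 and 21.22 in BLSE and 57.14 and 61.86 in BLSE + IWR1. With SOX17 it was thus lower than in BLSE in every library, with a difference at 12 h of -1.28 ± 0.26 (adjusted p = 0.00165). The difference at 24 h was -1.28 ± 0.26 (adjusted p = 0.000581). At 48 h the difference was -0.69 ± 0.26 (adjusted p = 0.0466), which missed the threshold whichever of the 4 libraries was left out (adjusted p of 0.0521 to 0.318). In BLSE + IWR1 it was still at 69.2 and 83.97 TPM at 24 h, within and above the range of cjESCs, and at 18.49 and 46.01 at 48 h, where the replicates stood far apart. With BMS it was at 38.97 and 39.87 at 24 h and 18.31 and 13.36 at 48 h. The difference that BMS made at 48 h was -0.86 ± 0.26 (adjusted p = 0.0257), but it was -1.50 (adjusted p = 2.62e-04) without replicate 1 of BLSE + IWR1 and -0.23 (adjusted p = 0.607) without replicate 2, and -0.65 (adjusted p = 0.231) without replicate 2 with BMS.

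DNMT3L, the inactive partner of the de novo enzymes, was lower at 12 h in 4 of the 5 conditions. It was at 27.07 and 19.35 TPM in cjESCs in DK20FA and 34.57 and 14.07 in PESFA, with the replicates well apart. At 12 h it was at 7.74 and 9.75 in BLSE, 3.94 and 7.27 in SOX17 + BLSE, 4.46 and 6.88 in SOX17 + LSE and 10.37 and 5.06 in BLSE + IWR1, below every cjESC library. In BLSE + IWR1 + BMS it was at 18.36 and 8.84, which overlapped the cjESCs in PESFA and did not pass the test (adjusted p = 0.16). It fell by 1.302 ± 0.38 (adjusted p = 0.0179) in BLSE, fell by 1.90 ± 0.38 (adjusted p = 0.000415) in SOX17 + BLSE, and fell by 1.48 ± 0.38 (adjusted p = 0.00347) in BLSE + IWR1. The calls in BLSE and BLSE + IWR1 were lost with a pseudocount of 0.1 (adjusted p = 0.182 and 0.0771), the first without replicate 1 in DK20FA or either BLSE library (adjusted p of 0.0600 to 0.185) and the second without replicate 1 in PESFA or replicate 2 of BLSE + IWR1 (adjusted p = 0.165 and 0.129). It was back at 23.45 and 18.25 TPM at 48 h in SOX17 + BLSE, when BLSE was at 7.89 and 7.39, a difference of 1.33 ± 0.38 (adjusted p = 0.00847). That call was lost with a pseudocount of 0.1 (1.43, adjusted p = 0.122) and without replicate 1 of SOX17 + BLSE (1.16, adjusted p = 0.0911) or replicate 2 of BLSE (1.29, adjusted p = 0.0600). By 96 h BLSE was at 23.65 and 26.97, an increase over 48 h of 1.60 ± 0.38 (adjusted p = 0.00251) that missed the threshold with a pseudocount of 0.1 (1.71, adjusted p = 0.0799), and no condition passed against its cjESCs.

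Of the TET enzymes, TET1 was the more abundant one in every library. In BLSE it went from 43.81 and 29.03 TPM to 18.52 and 14.24 at 12 h and 14.71 and 13.37 at 96 h, and fell by 1.29 ± 0.31 (adjusted p = 0.000792). In SOX17 + BLSE it was at 18.41 and 16.93 at 96 h, lower by 0.98 ± 0.31 (adjusted p = 0.00716), a call lost without replicate 1 in DK20FA (-0.69, adjusted p = 0.134). In SOX17 + LSE it was at 33.85 and 32.57 and inside the range of the cjESC libraries, and the difference between SOX17 + BLSE and SOX17 + LSE missed the threshold (adjusted p = 0.0533). TET2 at 96 h was at 8.79 and 11.58 in BLSE, higher than in cjESCs by 0.93 ± 0.30 (adjusted p = 0.0126), and at 8.36 and 7.55 in BLSE + IWR1, higher by 0.84 ± 0.30 (adjusted p = 0.0182). Both calls were lost without replicate 2 of the cjESCs (0.81 and 0.37, adjusted p = 0.0938 and 0.414) and without replicate 2 of BLSE (0.75, adjusted p = 0.131) or replicate 1 of BLSE + IWR1 (0.78, adjusted p = 0.0860), and the second under median-ratio scaling (0.62, adjusted p = 0.0511). In SOX17 + BLSE TET2 was at 4.89 and 6.46 at 96 h, lower than in BLSE by 0.74 ± 0.30 (adjusted p = 0.0358), a call lost without replicate 2 of BLSE or replicate 1 of SOX17 + BLSE (-0.56 and -0.57, adjusted p = 0.219 and 0.211).

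TDG, the glycosylase that removes oxidised methylcytosine, fell in 3 of the 4 conditions with BT-positive cells at 96 h. It was at 32.95 and 23.77 TPM in cjESCs in DK20FA, 26.1 and 24.69 in BLSE and 14.91 and 14.98 in SOX17 + BLSE at 96 h. The SOX17 + BLSE libraries were below all others of these, with a decrease from cjESCs of 0.86 ± 0.19 (adjusted p = 2e-04) and a difference from BLSE of -0.73 ± 0.19 (adjusted p = 0.00126). In SOX17 + LSE, where the decrease did not pass, TDG was at 21.37 and 19.78 TPM, also below both cjESC libraries in DK20FA. The difference between SOX17 + BLSE and SOX17 + LSE did not pass either (-0.44 ± 0.19, adjusted p = 0.129, limma). In BLSE + IWR1 it was at 17.83 and 16.32 TPM, lower by 0.47 ± 0.19 (adjusted p = 0.0328), and with BMS at 17.39 and 16.08, lower by 0.50 ± 0.19 (adjusted p = 0.0253). These 2 calls were lost without replicate 1 in PESFA (-0.38 and -0.41, adjusted p = 0.168 and 0.145) and without either library of BLSE + IWR1 or of BLSE + IWR1 + BMS (adjusted p of 0.0542 to 0.151).

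Counted over the 8 enzymes, 5 passed at 96 h in BLSE against 39.2% of all genes, 6 in SOX17 + BLSE against 53.5%, 4 in SOX17 + LSE against 45%, 6 in BLSE + IWR1 against 54.8% and 5 in BLSE + IWR1 + BMS against 51.8%. At 12, 24 and 48 h the numbers were 5, 4 and 5 in BLSE (14.1%, 19.5% and 28.8% of all genes), 5, 6 and 4 in SOX17 + BLSE (16.3%, 26% and 36.1%) and 4, 3 and 4 in SOX17 + LSE (15.1%, 18.9% and 21.6%). They were 4, 2 and 4 in BLSE + IWR1 (25.6%, 29.5% and 38.8%, with 4 at 48 h without replicate 1, when DNMT3B and DNMT3L no longer passed, and 5 without replicate 2, when UHRF1 no longer did) and 1, 3 and 6 in BLSE + IWR1 + BMS (24.6%, 31.5% and 37.1%). From 48 to 96 h, 3 passed in BLSE (14.6% of all genes), 4 in SOX17 + BLSE (34.8%), 3 in SOX17 + LSE (29.5%), 3 in BLSE + IWR1 (45.8%) and 5 in BLSE + IWR1 + BMS (41.6%). In these 5 steps UHRF1 fell in all 4 conditions sorted for BT at 96 h, by 1.68 in SOX17 + BLSE, 1.74 in SOX17 + LSE, 2.59 in BLSE + IWR1 and 3.01 in BLSE + IWR1 + BMS (adjusted p of at most 5.9e-11). In BLSE + IWR1, UHRF1 fell by 2.83 (adjusted p = 6.07e-15) without replicate 1 at 48 h and fell by 2.36 (adjusted p = 3.3e-13) without replicate 2. In the same step DNMT3B fell by 3.025 without replicate 1 and by 1.754 without replicate 2. UHRF2 rose by 0.44 without replicate 1, where its call was lost, and by 1.27 without replicate 2. Between SOX17 + BLSE and BLSE, 3 of 8 passed at 48 h (25.2% of all genes) and 5 of 8 at 96 h (55.6%). Of all genes at 96 h, 36.1% were higher in SOX17 + BLSE, sorted for BT, than in BLSE, not sorted for it, and 25.9% under median-ratio scaling. From pre-treated cells to 12 h in BLSE + IWR1, 1 of 8 passed (11.5%), DNMT3L, which fell by 1.67 ± 0.38 (adjusted p = 0.00223), a call lost without replicate 2 of BLSE + IWR1 (-1.22, adjusted p = 0.123) and with a pseudocount of 0.1 (-1.80, adjusted p = 0.0806).

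The additions of BMP4 and of BMS493 were compared next. Between SOX17 + BLSE and SOX17 + LSE, 0 of 8 enzymes passed limma's test at 12 h (0.473% of all genes) and at 24 h (4.87%), 1 at 48 h (13.3%) and 1 at 96 h (12.8%). At an unadjusted p under 0.05, 0 did at 12 h and 2 at 24 h. Both passing results were UHRF1, at 75.18 and 79.42 TPM without BMP4 at 48 h, where the difference was -0.51 ± 0.15 (adjusted p = 0.0169). The difference at 96 h was -0.45 ± 0.15 (adjusted p = 0.0427). The 48 h call was lost whichever of the 4 libraries was left out (adjusted p of 0.0636 to 0.126). The 96 h call was lost without either library of SOX17 + BLSE or replicate 2 of SOX17 + LSE (adjusted p of 0.141 to 0.383), under quantile normalization (adjusted p = 0.0504) and without the intensity trend (adjusted p = 0.0553). With BMS493, 0 of 8 passed at 12 h (0.125% of all genes), 0 at 24 h (0.438%), 2 at 48 h (11.5%) and 0 at 96 h (2.66%), by limma. At an unadjusted p under 0.05, 2 did at 12 h, 2 at 24 h and 1 at 96 h. The pair at 48 h were DNMT3B, above, and TDG, at 35.38 and 25.6 TPM against 14.37 and 23.99, higher by 0.67 ± 0.19 (adjusted p = 0.0174). TDG was higher by 1.02 (adjusted p = 9.16e-04) without replicate 2 of BLSE + IWR1 and by 0.32 (adjusted p = 0.376) without replicate 1, and by 0.44 (adjusted p = 0.283) without replicate 1 with BMS.

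The route with SOX17 and the route with IWR1 were compared as a difference of changes, each from its own cjESCs to BT-positive cells at 96 h. It was passed by 2 of 8 enzymes and 19.8% of all genes. The change of DNMT1 was larger in BLSE + IWR1 by 1.21 ± 0.24 (adjusted p = 0.000395), and that of UHRF1 was less negative by 0.67 ± 0.21 (adjusted p = 0.023). The DNMT1 levels at 96 h, 57.36 and 72.71 TPM against 50.89 and 41.61, did not overlap, and neither did the cjESC levels they started from. The UHRF1 call was lost without replicate 1 in PESFA, replicate 2 in DK20FA, either library of SOX17 + BLSE or replicate 2 of BLSE + IWR1 (adjusted p of 0.0518 to 0.0918).

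**Figure D3:**
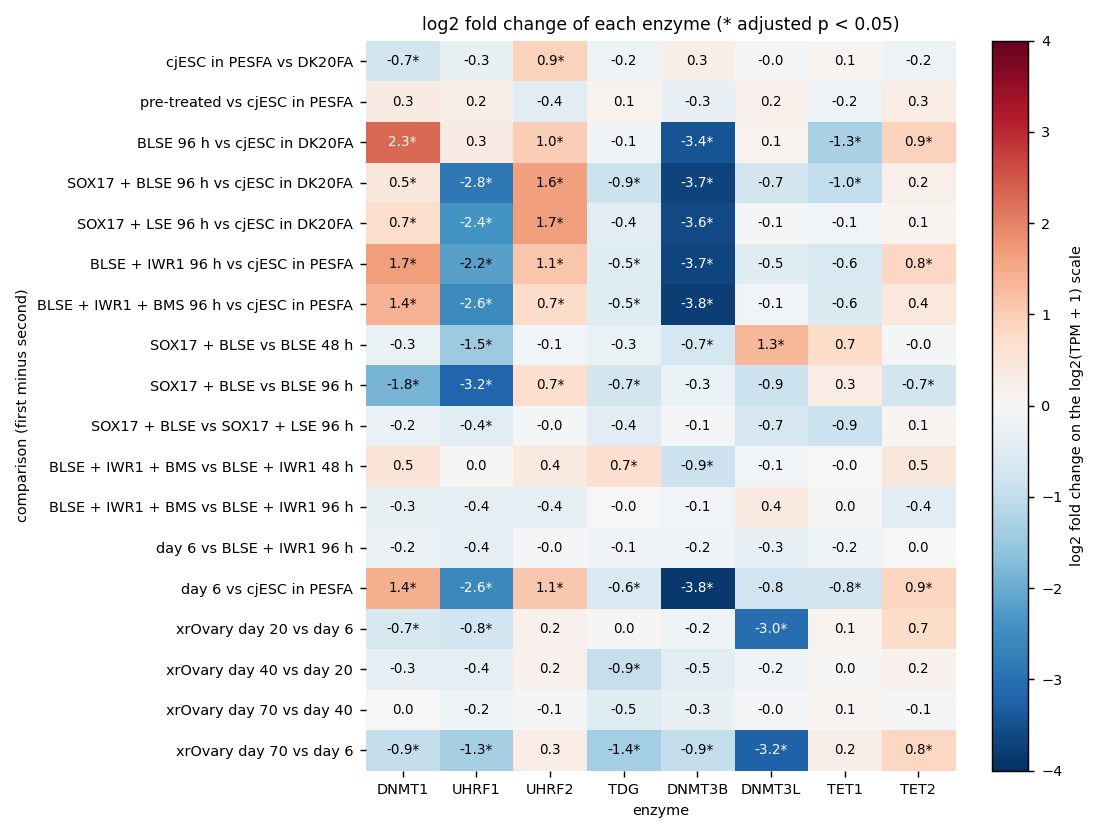
log2 fold change of each enzyme (columns) in 18 comparisons (rows, first minus second), on the log2(TPM + 1) scale, with an asterisk where the adjusted p was under 0.05. DNMT3B is lower in all 5 comparisons of 96 h with cjESCs, UHRF1 in the 4 whose cells were sorted for BT, and DNMT3L from day 6 to day 20.

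Day 6 cells were set beside the cells they came from. Between day 6 and 96 h in BLSE + IWR1, 0 of 8 enzymes passed limma's test, against 5.84% of all genes. At an unadjusted p under 0.05, 1 did. Against cjESCs in PESFA, 7 of 8 passed, 3 higher and 4 lower, against 55.4% of all genes. DNMT3B was at 4.21 and 3.96 TPM, lower by 3.84 ± 0.26 (adjusted p = 5.51e-15), and UHRF1 at 18.55 and 13.73, lower by 2.57 ± 0.15 (adjusted p = 9.72e-17). TDG was at 15.62 and 15, lower by 0.62 ± 0.19 (adjusted p = 0.00543), and TET1 at 23.98 and 20.66, lower by 0.77 ± 0.31 (adjusted p = 0.032). The TET1 call was lost without replicate 1 in PESFA or either day 6 library (-0.59 to -0.87, adjusted p of 0.0584 to 0.196) and that of TDG without replicate 1 in PESFA (-0.53, adjusted p = 0.0543). The higher ones were DNMT1 at 56.43 and 52.14, by 1.42 ± 0.17 (adjusted p = 9.68e-09), UHRF2 at 76.53 and 68.81, by 1.07 ± 0.22 (adjusted p = 8.65e-05), and TET2 at 9.14 and 7.11, by 0.86 ± 0.30 (adjusted p = 0.0154). The TET2 call was lost without replicate 2 in PESFA (0.39, adjusted p = 0.386) or replicate 1 at day 6 (0.70, adjusted p = 0.124).

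In xrOvaries the enzymes separated further. DNMT3L was at 10.87 and 13.7 TPM at day 6 and at 1.59 TPM in replicate 1 of day 20, and was listed at 0 in replicate 2. It was at 0.69 and 0.23 at day 40 and 0.18 and 0.65 at day 70. All 6 xrOvary libraries were below all others of the study. On the log2(TPM + 1) scale the decrease from day 6 was 3.04 ± 0.38 (adjusted p = 8.12e-08) at day 20 and 3.24 ± 0.38 (adjusted p = 7.05e-09) at day 70. Without replicate 2 of day 20, the library with the fewest genes above 0, it fell by 2.35 (adjusted p = 8.11e-05) to day 20, and without replicate 1 it fell by 3.72 (adjusted p = 2.17e-08).

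UHRF1 declined again, to 11.33 and 6.99 TPM at day 20, 6.8 and 6.73 at day 40 and 5.7 and 5.71 at day 70, all below the day 6 libraries. The decrease from day 6 was 0.77 ± 0.15 (adjusted p = 0.000114) at day 20, and 1.34 ± 0.15 (adjusted p = 2.36e-09) at day 70. Without replicate 1 of day 20 UHRF1 fell by 1.09 (adjusted p = 2.66e-06) to day 20, and without replicate 2 it fell by 0.46 (adjusted p = 0.0372). UHRF2 stayed high, at 92.2 and 73.82, 90.08 and 97.55 and 86.11 and 93.81 TPM, and made up 94.0% ± 0.333 (SD, n = 2) of the pair at day 70. DNMT1 was at 32.56 and 35.91 TPM at day 20, inside the range of cjESCs in DK20FA, and 25.6 and 29.86 at day 70, below every cjESC library in DK20FA and above every one in PESFA. It fell from day 6 by 0.65 ± 0.17 (adjusted p = 0.00369) at day 20 and by 0.95 ± 0.17 (adjusted p = 2.44e-05) at day 70. The former was -0.58 (adjusted p = 0.0383) without replicate 1 of day 20 and -0.72 (adjusted p = 0.0130) without replicate 2. DNMT3B went from 3.55 and 3.3 TPM at day 20 to 1.85 and 1.46 at day 70, a decrease from day 6 of 0.94 ± 0.26 (adjusted p = 0.00342).

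On the demethylation side, TDG was at 15.06 and 16.71 TPM at day 20, overlapping the day 6 libraries, and then fell to 9.3 and 6.83 at day 40 and 5.84 and 4.98 at day 70. From day 20 to day 40 it fell by 0.91 ± 0.19 (adjusted p = 0.00117), 0.71 (adjusted p = 0.0652) without replicate 2 of day 40, and from day 6 to day 70 it fell by 1.35 ± 0.19 (adjusted p = 2.16e-07). The step from day 20 to day 40 was -0.98 (adjusted p = 0.00417) without replicate 1 of day 20 and -0.84 (adjusted p = 0.0270) without replicate 2. TET1 was at 21.46 and 27.73, 25.67 and 24.46 and 26.12 and 26.34 TPM and passed none of these comparisons. TET2 was at 12.6 and 15.99, 16.78 and 15.54 and 14.01 and 16.35, above every other library of the study. It was higher at day 70 than at day 6 by 0.83 ± 0.30 (adjusted p = 0.0256), a call lost without replicate 2 of day 6 (0.67, adjusted p = 0.174) or either day 70 library (0.94 and 0.73, adjusted p = 0.0540 and 0.143). TET2 made up 34.9 and 38.3% of the summed TPM of TET1 and TET2 at day 70, against 12.0 and 7.06% in cjESCs in PESFA.

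From day 6 to day 20, 3 of 8 enzymes passed, all lower, against 29.7% of all genes. From day 20 to 40, 1 passed against 9%, and from day 40 to 70, 0 passed limma's test against 5.05%. At an unadjusted p under 0.05, 1 did. From day 6 to day 70, 6 passed, 5 lower and 1 higher, against 41.3%. Over the whole course from cjESCs in PESFA to day 70, 7 passed against 60.8% of all genes. DNMT3B fell over it by 4.79 ± 0.26 (adjusted p = 4.89e-18), UHRF1 fell by 3.91 ± 0.15 (adjusted p = 2.55e-22) and DNMT3L fell by 4.05 ± 0.38 (adjusted p = 1.61e-11). TDG fell by 1.97 ± 0.19 (adjusted p = 2.14e-11). TET2 rose by 1.69 ± 0.30 (adjusted p = 9.06e-06), UHRF2 by 1.37 ± 0.22 (adjusted p = 1.39e-06) and DNMT1 by 0.47 ± 0.17 (adjusted p = 0.0175). The call of DNMT1 was lost without replicate 2 of cjESCs in PESFA (0.22, adjusted p = 0.371), without replicate 2 at day 70 (0.37, adjusted p = 0.15) and in a fit of these 4 libraries alone (0.47, adjusted p = 0.148), and without replicate 1 of cjESCs in PESFA the difference was 0.72.

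**Figure D4:**
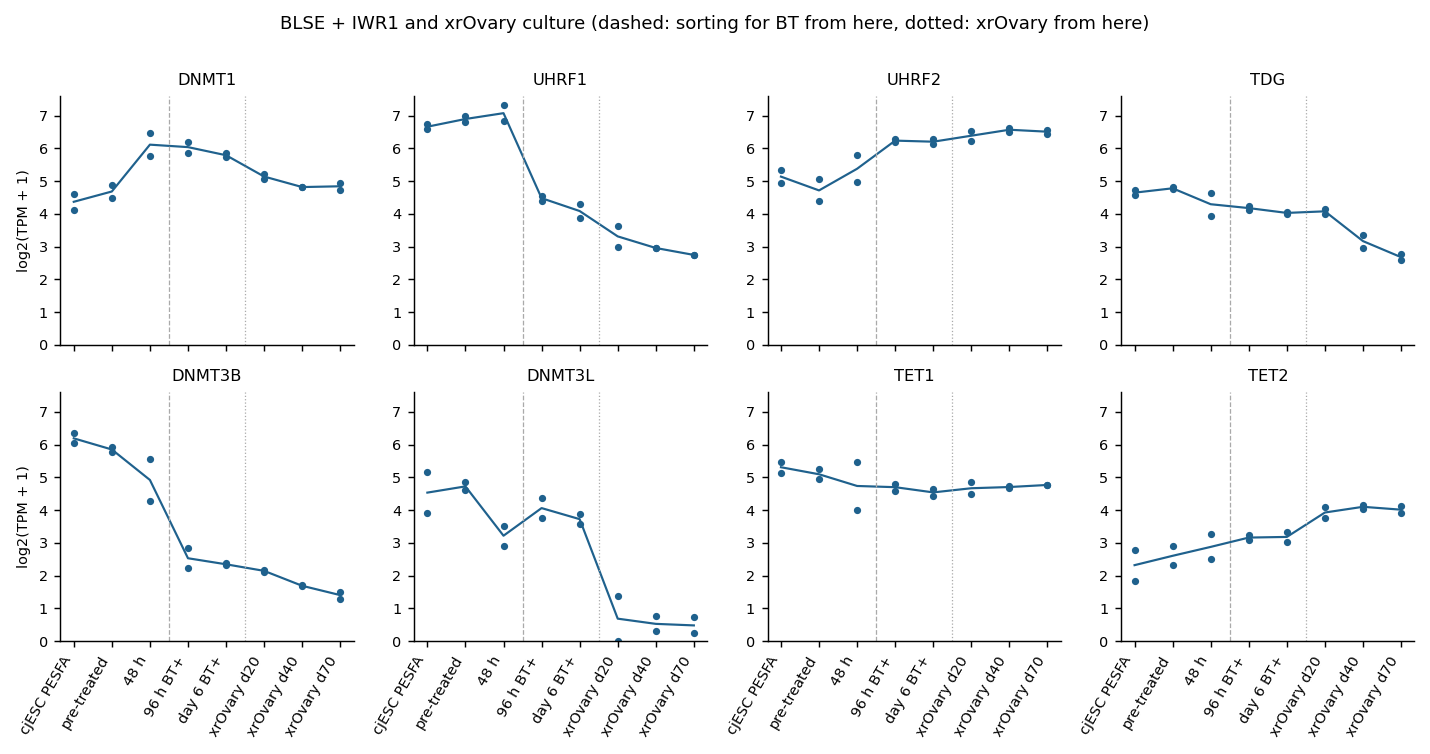
log2(TPM + 1) of the 8 enzymes from cjESCs in PESFA through BLSE + IWR1 to xrOvaries, with points for libraries and a line through the means of 2. The dashed line marks the start of sorting for BT and the dotted line the start of xrOvary culture. UHRF1 is lower after the dashed line than before it, DNMT3L is lowest after the dotted line and TDG is lower at days 40 and 70 than at day 20.

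UHRF1 is a gene of S phase, and the levels of 18 genes of S phase and proliferation were set beside it. Of these 18, 2 rose and 7 fell at day 6 against cjESCs in PESFA, with a median change of -0.15, where 31.4% of all genes rose and 24% fell. From day 6 to day 70, 5 rose and 2 fell, with a median of 0.12, where 10.8% of all genes rose (18.9% under median-ratio scaling) and 30.5% fell. PCNA, the replication clamp, was at 361.16 and 330.61 TPM in cjESCs in PESFA, 226.11 and 224.48 at day 6 and 396.15 and 319.66 at day 70. MCM5, a subunit of the replicative helicase, was at 185.8 and 157.67, then 95.79 and 85.96, and then 191.13 and 173.73. Both thus fell to day 6 (adjusted p = 0.000661 and 2.41e-09, limma) before they rose to day 70. RRM2 and CCNE1 were the most reduced of the list at day 6, by 2.23 and 2.03. The 2 that fell from day 6 to day 70 were TYMS, by 0.79, and CCNE1, by 0.59. The part of proliferation in the level of UHRF1 was not tested. The mean log2 value of UHRF1 was 0.21 above the mean of the 18 in cjESCs in PESFA, 1.87 below it in BLSE + IWR1 at 96 h, 1.95 below it at day 6 and 3.38 below it at day 70. Over the 27 condition means, which include those sorted for BT and those not, Pearson's r with the mean of the 18 was 0.869 for UHRF1, 0.779 for TDG, 0.688 for DNMT3B, 0.358 for DNMT1, 0.316 for DNMT3L, 0.179 for TET1, -0.449 for TET2 and -0.777 for UHRF2.

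**Figure D5:**
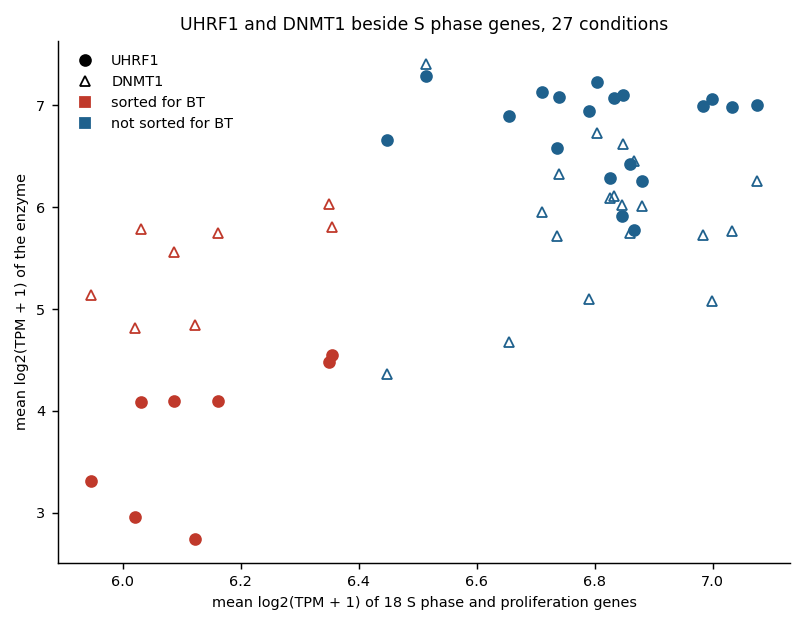
Mean log2(TPM + 1) of UHRF1 (circles) and DNMT1 (triangles) against that of 18 S phase and proliferation genes, with 1 point for each of 27 conditions and red for cells sorted for BT. BT-sorted cells lie between 5.95 and 6.36 on the horizontal axis and between 2.75 and 4.55 for UHRF1.

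The partners of the enzymes were counted by role for day 6 against cjESCs in PESFA, where 31.4% of all genes rose and 24% fell with a median change of 0.11, and for day 70 against day 6, where 10.8% rose (18.9% under median-ratio scaling) and 30.5% fell with a median of -0.20. These comparisons share the day 6 libraries. The role lists also share genes, so their counts are not independent. PCNA (maintenance) and TYMS (methyl group supply) are also among the S phase genes, and MBD4 is counted under both base excision repair and methyl-CpG readers. Median-ratio scaling moved the median of all genes by -0.164 in the former and 0.201 in the latter. Of 8 genes of maintenance methylation tested, 3 rose and 3 fell at day 6 (median 0.21), and 3 rose and 2 fell at day 70 (median 0.25), the enzymes DNMT1, UHRF1 and UHRF2 included. HELLS, a chromatin remodeller needed for methylation, was at 306.42 and 265.18 TPM in cjESCs, 108.82 and 100.94 at day 6 and 187.57 and 165.26 at day 70. It fell and then rose, by 1.44 and 0.74 (adjusted p = 2.95e-11 and 2.42e-05). USP7, a deubiquitinase that acts on UHRF1 and DNMT1, was at 190.82 and 188.64 TPM in cjESCs and 201.34 and 193.78 at day 6. LIG1, the ligase of the lagging strand, was at 1.54 and 2.11 TPM at day 6 and 7.84 and 6.09 at day 70 (adjusted p = 2.61e-04).

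Of 9 genes in the list of de novo partners and guides, which holds DNMT3B and DNMT3L, 1 rose and 2 fell at day 6 (median -0.08), and 1 rose and 4 fell at day 70 (median -0.21). EHMT2, which writes H3K9 dimethylation, was at 26.83 and 20.99 TPM in cjESCs and 2.69 and 3.23 at day 6, lower by 2.65 (adjusted p = 3.71e-11), whereas EHMT1, its partner, was at 49.66 and 44.6 and then 44.19 and 45.06. NSD2, which writes H3K36 dimethylation, was at 0.4 and 0.23 TPM in cjESCs, 2.31 and 1.92 at day 6 and 5.35 and 5.21 at day 70, and rose at both steps (adjusted p = 1.10e-05 and 2.87e-04).

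Of 7 genes in the list of TET enzymes and their cofactors, 1 rose and 4 fell at day 6 (median -0.73), and 2 rose and 1 fell at day 70 (median 0.23). IDH2, a source of the 2-oxoglutarate that TET enzymes use, was at 204.4 and 244.64 TPM in cjESCs, 134.11 and 131.11 at day 6 and 66.07 and 63.04 at day 70, and fell by 0.75 and 1.03 (adjusted p = 2.31e-06 and 7.35e-09). OGT, the glycosyltransferase that binds TET proteins, was at 77.77 and 78.32 TPM at day 6 and at 124.22 and 113.12 at day 70, and rose by 0.60 (adjusted p = 0.00377). Of 13 genes of base excision repair, TDG included, 5 rose and 1 fell at day 6 (median 0.45), and 2 rose and 5 fell at day 70 (median -0.28). The 1 that fell at day 6 was TDG. UNG, the uracil glycosylase, went from 170.23 and 168.6 TPM in cjESCs to 256.6 and 254.6 at day 6 and 450.73 and 429.21 at day 70, a rise of 0.59 and then 0.78. MBD4, the other thymine glycosylase for CpG sites, was at 36.35 and 33.88 TPM at day 6 and 18.98 and 28.04 at day 70, lower by 0.58 (adjusted p = 0.0209).

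Of 10 genes of methyl group supply, 5 rose and 3 fell at day 6 (median 0.60), and 0 rose and 2 fell at day 70 (median 0.18). AHCY, which clears the inhibitory product of methylation, was at 250.45 and 250.49 TPM in cjESCs and 475.98 and 453.86 at day 6, and MTHFD1, of the folate cycle, at 192.79 and 161.64 and then 423.25 and 431.23. Of 5 methyl-CpG readers tested, 4 rose and 0 fell at day 6 (median 0.67), and 0 rose and 3 fell at day 70 (median -0.58). Of 4 cytidine deaminase and GADD45 genes, 0 rose and 3 fell at day 6 (median -1.04) and 0 rose and 3 fell at day 70 (median -1.47), and GADD45B, a stress-induced gene, was at 39.41 and 70.57 TPM in cjESCs and 6.01 and 5.76 at day 6.

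Germline genes that promoter methylation silences in mouse came last. Of 20 listed, all in the table, 13 passed the filter, for which a high value in late germ cells alone was enough, so only values of single genes are given. DAZL, an RNA-binding protein of germ cells, was listed at 0 in both day 6 libraries and was at 51.88 and 53.9 TPM at day 70. MAEL and MOV10L1, of the piRNA pathway, were at 7.06 and 7.07 and at 5.65 and 6.03 TPM at day 6, and at 69.43 and 72.37 and at 57.41 and 66.47 at day 70. SOHLH2, a transcription factor of early gametogenesis, went the other way, from 75.78 and 80.26 TPM to 9.97 and 12.87, and DPEP3 from 29.6 and 25.75 to 4.29 and 3.67.

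Across the 27 condition means of log2(TPM + 1), the 3 genes most like each enzyme were found by Pearson's r, of which 2 are given for UHRF2. The closest were those of UHRF1, with NOP56 (r = 0.987), STRAP (0.987) and MYC (0.986), and those of DNMT3B, with CASQ1 (0.964), SOX2 (0.963) and EHMT2 (0.958). For TDG they were ALG10 (0.958), BAG4 (0.943) and CDH3 (0.940), for UHRF2 FIS1 (0.917) and TAF15 (0.900), and for DNMT1 SLC35G1 (0.906), STXBP2 (0.903) and HDGF (0.900). DNMT3L was followed by RANGRF (0.864), FKBP9 (0.840) and POGLUT3 (0.833), TET2 by KIF13B (0.866), NSD2 (0.861) and RPSA (0.831), and TET1, the least matched, by CDKL2 (0.776), NPY1R (0.774) and DEPTOR (0.765). Among the enzymes themselves, UHRF1 and TDG were the most alike (r = 0.865) and UHRF1 and UHRF2 the least (r = -0.796). These are descriptions over conditions that share starting cells, media and sorts.

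In the order of the condition means, DNMT3B ranged from 76.6 TPM (BLSE + IWR1 at 24 h) to 1.66 TPM (day 70), UHRF1 from 155.1 (BLSE at 96 h) to 5.71 (day 70), and DNMT1 from 167.9 (BLSE at 96 h) to 19.9 (cjESCs in PESFA). UHRF2 ranged from 93.8 (day 40) to its lowest level in cjESCs in DK20FA and TDG from 30.5 (BLSE + IWR1 + BMS at 48 h) to 5.41 (day 70). TET1 ranged from 40.3 (BLSE + IWR1 at 24 h) to 14.0 (BLSE at 96 h), which was 2.87-fold and the smallest ratio of the 8, and TET2 from 16.2 (day 40) to 3.77 (BLSE at 12 h), which was 4.29-fold. Of the 26 neighbouring pairs in each order, the libraries overlapped in 16 for UHRF1, 18 for DNMT3B, 22 for DNMT1 and TDG, 23 for UHRF2 and DNMT3L, and 25 for TET1 and TET2. No such count over all genes is given, so these numbers do not set the enzymes apart from other genes.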

How the data were processed

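Poly(A) RNA was sequenced from 54 libraries of 27 conditions, with directional, single-end reads. The authors mapped reads to the marmoset genome with STAR, estimated abundance with RSEM and deposited TPM for genes common to marmoset and human. No read counts were used here, so depth is unknown, and a value of 0 is given as listed at 0. Deposited TPM sums per library were 790300 to 839203, and 0 sample columns were left unused.

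Here, limma (version 3.58.1, R 4.3.3) was fitted to log2(TPM + 1), with 1 mean per condition over all 54 libraries (27 residual degrees of freedom), an intensity trend and two-sided tests. Genes at 1.5 or more in at least 1 library were kept, and p-values were adjusted by Benjamini-Hochberg over 11197 genes. A gene passed at an adjusted p under 0.05. Values after ± are standard errors unless named SD, and fold changes are first minus second on the log2(TPM + 1) scale, which understates the change of low genes. The fit was run on simulated data with the same mean in all conditions, independent noise and few changed genes. Those settings differ from the data, so no error rate is taken from that run. An exact permutation test of 2 against 2 libraries cannot go below p = 0.33. The authors prepared biological duplicates. The sources used here do not say how far apart the duplicates were grown, and p-values measure the spread between these libraries. TDG has processed copies in primate genomes, and their share of its reads was not tested.

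The members and lists were chosen with earlier results of these data known. The genes named were all members, members of the role, S phase and marker lists, and for each member the 3 genes with the highest Pearson's r over 27 condition means, and a few of these genes are not reported here. Of the fitted comparisons 18 were main ones, and the others were added at 12, 24 and 48 h, between 48 and 96 h and from cjESCs to day 70.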

Additional observations from a re-analysis of the deposited data

Results flagged for a closer look

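The changes from cjESCs to BT-positive cells at 96 h differed between the 2 routes for 2 enzymes, by a test of the difference itself. The change of DNMT1 was larger in BLSE + IWR1 than in SOX17 + BLSE by 1.21 ± 0.24 on the log2(TPM + 1) scale (adjusted p = 3.95e-04, limma). The cjESCs these changes start from differed as well, with DNMT1 lower in PESFA than in DK20FA by 0.73 ± 0.17. The change of UHRF1 was less negative in BLSE + IWR1 by 0.67 ± 0.21 (adjusted p = 0.0230, limma), a call that was lost on leaving out any of 5 of the 8 libraries, 1 at a time (adjusted p of 0.0518 to 0.0918). Both calls were lost in a fit of only the libraries compared, which leaves few residual degrees of freedom. The routes differed in transgenes, medium, pre-treatment and dexamethasone as well as in SOX17 and IWR1, and these cannot be told apart. The cjESCs of origin also differed in fibroblast RNA, with COL1A1 at 1598.43 and 877.89 TPM in PESFA and 41.84 and 83.56 in DK20FA. The part of fibroblast RNA in these changes was not tested.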

How the results depend on the processing

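Of the 58 fold changes that passed in the 18 main comparisons and the difference of routes, 0 turned direction under any alternative tried and 32 passed under all of them, and of the 94 that did not pass, 40 turned direction at least once. Of the 58, the number that lost the threshold was 3 under median-ratio scaling and 1 each with a pseudocount of 0.1, with no filter, with no intensity trend and under quantile normalization. Fitting only the libraries compared, which leaves few residual degrees of freedom, lost 20. In that fit the number of enzymes passing was 0 between the cjESCs, 3 in BLSE at 96 h, 3 in BLSE + IWR1 + BMS at 96 h, 0 between SOX17 + BLSE and SOX17 + LSE at 96 h, 0 for BMS at 48 h, 1 from day 6 to day 20, 0 from day 20 to day 40 and 0 for the routes. Between SOX17 + BLSE and SOX17 + LSE at 96 h it was 2 under median-ratio scaling and 0 with no intensity trend. Leaving out 1 library at a time gave 0 to 2 enzymes between the cjESCs, 3 to 5 in BLSE + IWR1 + BMS at 96 h, 1 to 2 between SOX17 + BLSE and BLSE at 48 h and 3 to 5 at 96 h, 0 to 1 between SOX17 + BLSE and SOX17 + LSE at 96 h, 1 to 3 for BMS at 48 h, 0 to 2 from day 20 to day 40 and 1 to 2 for the routes. A lone library is then assumed to vary like the other conditions. The cause of the other losses was not tested. Median-ratio scaling moved the median of all genes by -0.241 (SOX17 + BLSE against BLSE at 96 h) to 0.201 (day 70 against day 6).

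Same-numbered libraries did not deviate together, with correlations of -0.06 to 0.164 over 18 comparisons, above 0.1 in 2. With the replicate block 5 enzymes passed in BLSE at 96 h and 6 in SOX17 + BLSE, and 58 of the 58 fold changes still passed. The alternatives for the added comparisons were chosen after seeing the data. Depth is unknown, so values near 0, as of DNMT3L in xrOvaries, have no counting interval.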
